A study of Homo sapiens with 8 samples.

Results

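Axon guidance genes encode secreted and membrane-bound cues and the receptors that read them, and 6 of them were listed in tables that compare human K-562 cells of altered TASOR or TASOR2 dosage with wild-type cells. Members were chosen by symbol alone: semaphorins, plexins, UNC5 and ROBO receptors, SLIT1 to SLIT3, netrins, ephrins, Eph receptors, DCC and NEO1. In all, 1221 different genes were listed, and the members among them were SEMA3A, EFNB1, PLXNA2, NEO1, UNC5B and ROBO1, with 7 listings in all. The rule used no measured value, but a gene enters a table only past thresholds on its fold change, p and mean expression. GENCODE 29 annotates 72 protein-coding genes that fit the rule, 2 of which start with UNC5 but are not the receptor genes UNC5A to UNC5D. The 6 listed are 8.33% of these, beside 4.94% for all annotated protein-coding genes (986 of 19969), and that difference was not tested. The families were chosen with earlier results of these data known, so their higher share is no independent finding. The other 66 have no value here, and absence from a table does not show a control level.

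K-562 is an established leukaemia line with erythroid and megakaryocytic features. Of its 8 libraries, 2 came from wild-type cells with a negative guide RNA, which served as the control of every comparison. A further 2 came from TASOR knockout cells, 2 from TASOR knockout cells with a FLAG-TASOR transgene and 2 from wild-type cells with a FLAG-TASOR2 transgene. Per the labels' protocols, all lines descend from single sorted cells given CRISPR/Cas9 plasmids, and the lentivirus carried either a transgene or, as the negative control, an empty puromycin vector. The labels name no guide for the FLAG-TASOR2 cells, so a guide effect and a transgene effect cannot be told apart in that comparison. The sources used here do not say if a group's libraries came from different clones, so p-values reflect only how far these libraries vary, which may be technical.

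TASOR is a scaffold protein of the HUSH silencing complex, which keeps retrotransposons and certain genes repressed through histone methylation, and TASOR2 is its paralog. In axon guidance, semaphorins signal through plexins, often with neuropilins as co-receptors, netrins through DCC, neogenin and UNC5 receptors, SLITs through ROBO receptors, and ephrins through Eph receptors. These families are known from growing neurons, and many members also act in blood vessels, blood cells and tumours, where they alter adhesion and the actin cytoskeleton.

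The tables hold no value per library, and depth is unknown from them. They give a log2 fold change (positive where the altered cells were higher), a log2 mean expression in CPM (read counts scaled to library size), an F score, a p and a p adjusted over all genes tested. Group levels in CPM were derived from the fold change and the mean, on the assumption that both groups weigh equally in that mean. For genes in several tables the control level could be derived more than once. The estimates differed by a median of 0.07 to 0.13 on the log2 scale between pairs of tables, over 60 or 100 genes per pair. The tables were normalised separately, so levels from different tables are set side by side and not tested. Values in parentheses after a log2 fold change are approximate standard errors, derived from the F score.

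The label check was incomplete. TASOR was listed as lower in the knockout at -1.08 (0.23) in the authors' deposited table, with a derived level of 39.0 CPM against 82.4 CPM in controls. TASOR2 was listed as higher with FLAG-TASOR2 at 2.26 (0.27) in the authors' deposited table, and neither gene was listed for the knockout with FLAG-TASOR. The labels call the cells lymphoblasts, whereas the globin gene HBA1 stood at a derived 718 CPM in the controls. No lymphoid marker list was drawn up.

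No member reached an adjusted p of 0.05 in any comparison (0 of 7 listings, edgeR-type F-test of the deposited tables), while all 7 had an unadjusted p below 0.05, as the listing requires. In the knockout 2 members were listed, both as higher. Of 13992 genes tested there, 1.92% were listed, 0.979% as higher, and 0.00715% had an adjusted p below 0.05. With FLAG-TASOR in knockout cells 2 members were listed, both as lower. At least 13957 genes were tested in that comparison, so at most 1.87% were listed and at most 1.26% were listed as lower, and the share with an adjusted p below 0.05 was 0%. With FLAG-TASOR2 the members numbered 3, of which 1 was higher and 2 were lower. Among all 14001 genes of this comparison 6.31% were listed, 2.56% as higher and 3.76% as lower, and 0.0357% had an adjusted p below 0.05. How many of the 72 annotated genes the authors tested is unknown, so the members' counts cannot be turned into shares of tested genes.

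**Figure D1:**
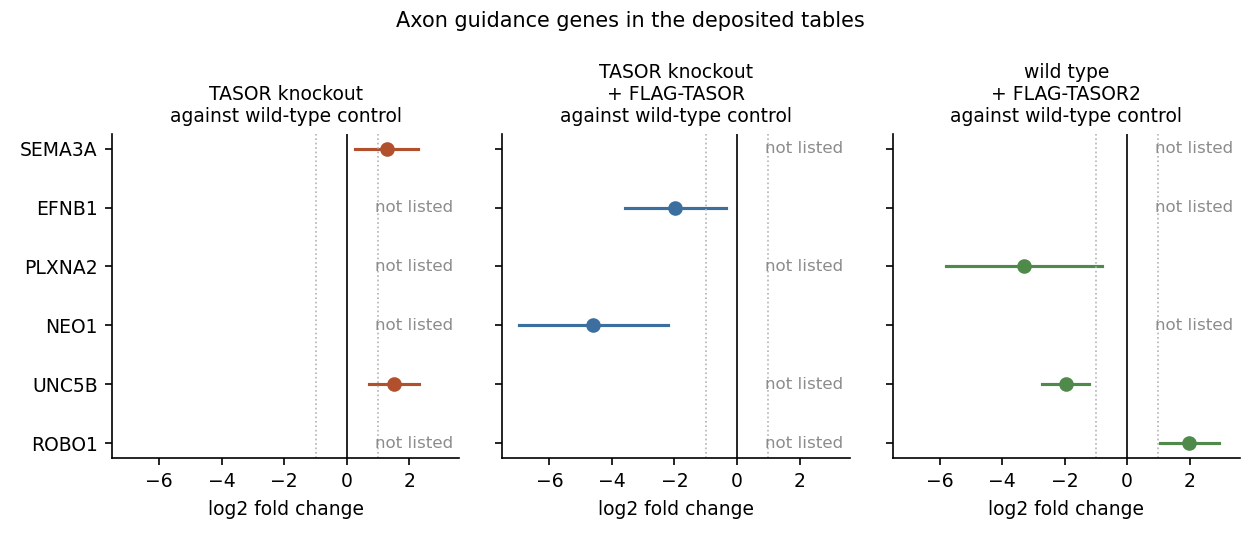
Log2 fold changes of the 6 members against wild-type controls in each of the 3 deposited tables (x axis), with approximate 95% intervals as bars and the listing threshold of 1 in either direction as dotted lines. UNC5B is the one gene with a point in more than 1 panel, at 1.5 in the knockout and -1.97 with FLAG-TASOR2.

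Among the ligands, SEMA3A was listed in the knockout. It encodes a secreted semaphorin that repels growing axons through neuropilin-1 and A-type plexins, and it lies on chromosome 7 at 83955777 to 84492724 (GRCh38, as are all gene positions below). Its derived level was 4.33 CPM in controls and 10.5 CPM in the knockout. In the authors' deposited table the log2 fold change was 1.28 (0.40), with an approximate 95% interval of 0.27 to 2.29, p 0.0223 and adjusted p 1.00. The change was among the smaller ones, at rank 229 of the 268 genes of that table by absolute fold change. Neither a plexin nor a neuropilin was listed beside it.

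EFNB1, on chromosome X at 68828997 to 68842147, encodes ephrin-B1, a membrane-anchored ligand that signals in both directions when it meets EphB receptors on another cell. It was listed with FLAG-TASOR in knockout cells. The derived level was 4.07 CPM in controls and 1.04 CPM in the altered cells, which placed it near the low end of expression in its table (rank 236 of 261). In the authors' deposited table its log2 fold change was -1.97 (0.64), with an interval of -3.59 to -0.35, p 0.0258 and adjusted p 0.999. No Eph receptor was listed in any of the 3 tables (0 of 14 annotated).

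The receptor with the largest fold change was NEO1, which encodes neogenin, a relative of DCC that binds netrins and repulsive guidance molecules. It was listed with FLAG-TASOR in knockout cells. Its derived level was 91.8 CPM in controls and 3.81 CPM in the altered cells, a ratio of 24.1. The log2 fold change in the authors' deposited table was -4.59 (0.94), with an interval of -6.96 to -2.22, p 0.00378 and adjusted p 0.999. By mean expression and by absolute fold change NEO1 was each time the 13th of 261 listed genes, and by p the 26th. An average of the control level and 0 would still be 5.52 on the log2 CPM scale, above the listing minimum of 1. In the 2 tables that do not list NEO1, the knockout and FLAG-TASOR2, it therefore missed the thresholds on p or on fold change if it was tested. The difference between the knockout groups with and without FLAG-TASOR was not tested.

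NEO1 lies on chromosome 15 at 73051710 to 73305206. Start regions are shown for NEO1, because its fold change was the largest among the members, and for ROBO1, because its 2 annotated starts lie 749 kb apart and a gene-level value does not separate them. Each is 300 bases from RefSeq on GRCh38.p14, 250 before the start and 50 after, read 5′ to 3′ on the strand of the gene, with CG dinucleotides in capitals.

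NEO1 chr15:73051652-73051951, plus strand: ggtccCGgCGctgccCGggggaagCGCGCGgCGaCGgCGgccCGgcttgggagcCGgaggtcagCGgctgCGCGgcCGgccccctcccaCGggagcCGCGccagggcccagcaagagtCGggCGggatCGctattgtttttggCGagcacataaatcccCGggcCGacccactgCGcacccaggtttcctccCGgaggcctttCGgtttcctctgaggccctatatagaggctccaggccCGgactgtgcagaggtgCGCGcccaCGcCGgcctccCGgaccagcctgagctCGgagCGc

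ROBO1 distal start chr3:79767949-79768248, minus strand: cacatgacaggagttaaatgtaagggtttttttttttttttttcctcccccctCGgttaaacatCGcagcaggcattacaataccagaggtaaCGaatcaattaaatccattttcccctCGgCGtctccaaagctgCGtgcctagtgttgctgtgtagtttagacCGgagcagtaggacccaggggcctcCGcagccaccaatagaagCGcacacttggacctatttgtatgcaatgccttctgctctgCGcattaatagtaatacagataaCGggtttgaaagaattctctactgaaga

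ROBO1 proximal start chr3:79019410-79019709, minus strand: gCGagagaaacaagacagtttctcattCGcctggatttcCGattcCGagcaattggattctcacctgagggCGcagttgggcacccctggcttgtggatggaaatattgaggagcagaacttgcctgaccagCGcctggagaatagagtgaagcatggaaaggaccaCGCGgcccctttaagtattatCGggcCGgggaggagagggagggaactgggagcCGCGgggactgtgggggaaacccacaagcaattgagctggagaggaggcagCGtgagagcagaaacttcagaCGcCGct

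The NEO1 window holds 35 CG dinucleotides, a number reached by 14.1% of 35116 such windows, whose median is 14. The ROBO1 windows hold 11 and 15, reached by 54.7% and 48.9%. PLXNA2 with 29 and EFNB1 with 18 lie between, reached by 24.2% and 44.5%. The counts describe base composition. No methylation or binding was measured in the tables used here.

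UNC5B was listed in more than 1 comparison, the only member for which this held, and in opposite directions. It encodes a netrin receptor that mediates repulsion and lies on chromosome 10 at 71212570 to 71302864. In the knockout the derived level was 88.3 CPM against 31.2 CPM in controls, and the log2 fold change in the authors' deposited table was 1.5 (0.32). The interval ran from 0.71 to 2.30, with p 0.00422 and adjusted p 1.00. By mean expression it was the 6th of the 268 genes listed there.

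With FLAG-TASOR2 the order was turned. The derived level of UNC5B was 7.23 CPM against 28.4 CPM in controls, and the log2 fold change was -1.97 (0.30) in the authors' deposited table. The interval ran from -2.71 to -1.23, with p 0.000614 and adjusted p 0.139, the lowest p of any member. Both comparisons use the same control libraries, from which the 2 tables gave similar control levels (31.2 and 28.4 CPM), and the knockout and FLAG-TASOR2 levels lay on either side of them. The difference between the 2 altered groups was not tested, since the tables carry no values per library. In knockout cells with FLAG-TASOR UNC5B was not listed. At its control level the mean expression could not have kept it out, so its p or fold change there missed the threshold if it was tested.

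**Figure D2:**
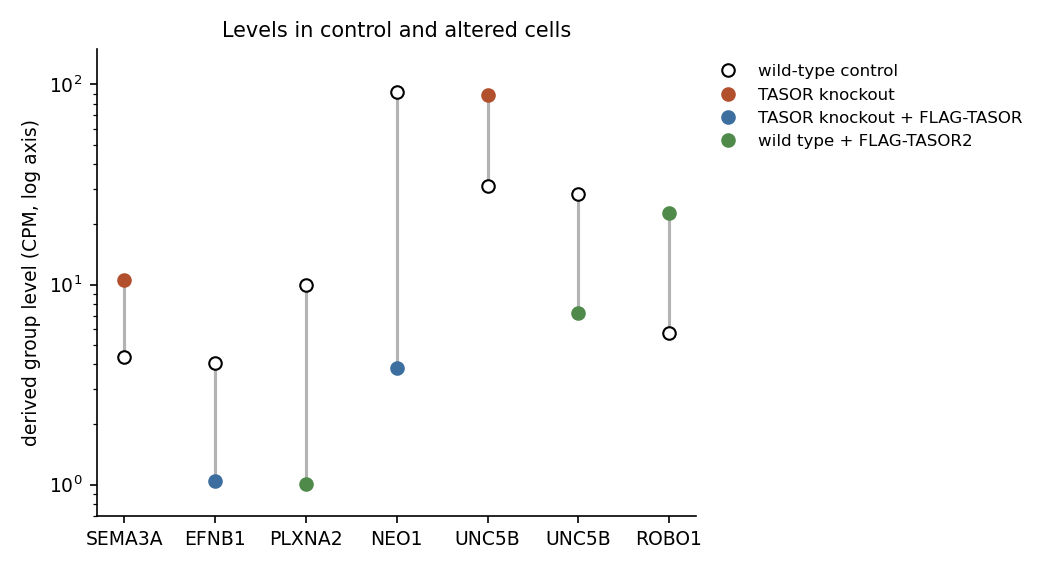
Derived group levels (y axis, CPM on a log axis) of each member in each table that lists it, with open circles for the wild-type controls and filled circles for the altered cells; no error is drawn because the tables hold no value per library. The UNC5B pair shows similar control levels of 31.2 and 28.4 CPM with the knockout above and FLAG-TASOR2 below.

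ROBO1 and PLXNA2 were listed with FLAG-TASOR2 and in neither knockout group, in opposite directions. ROBO1, on chromosome 3 at 78597240 to 79767815, encodes a receptor for SLIT proteins. Its derived level was 22.9 CPM against 5.75 CPM in controls, and its log2 fold change was 1.99 (0.38) in the authors' deposited table (interval 1.06 to 2.93, p 0.00196, adjusted p 0.184). None of the SLIT genes was listed in any table (0 of 3), so the ligands have no value here.

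PLXNA2, on chromosome 1 at 208022242 to 208244320, encodes an A-type plexin, the signalling receptor for several semaphorins. It had a derived level of 1.01 CPM with FLAG-TASOR2 and 9.93 CPM in controls. Its log2 fold change was -3.30 (1.02) in the authors' deposited table, with an interval of -5.80 to -0.80, p 0.0180 and adjusted p 0.294. The approximate standard error was the largest among the members, and its expression was below the median of its table. For SEMA3A and EFNB1, the same arithmetic as for NEO1 gives 1.11 and 1.03 on the log2 CPM scale. These lie close to the listing minimum of 1, so for these 2 genes an expression below the minimum cannot be told apart from a missed p or fold change in the tables without them.

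**Figure D3:**
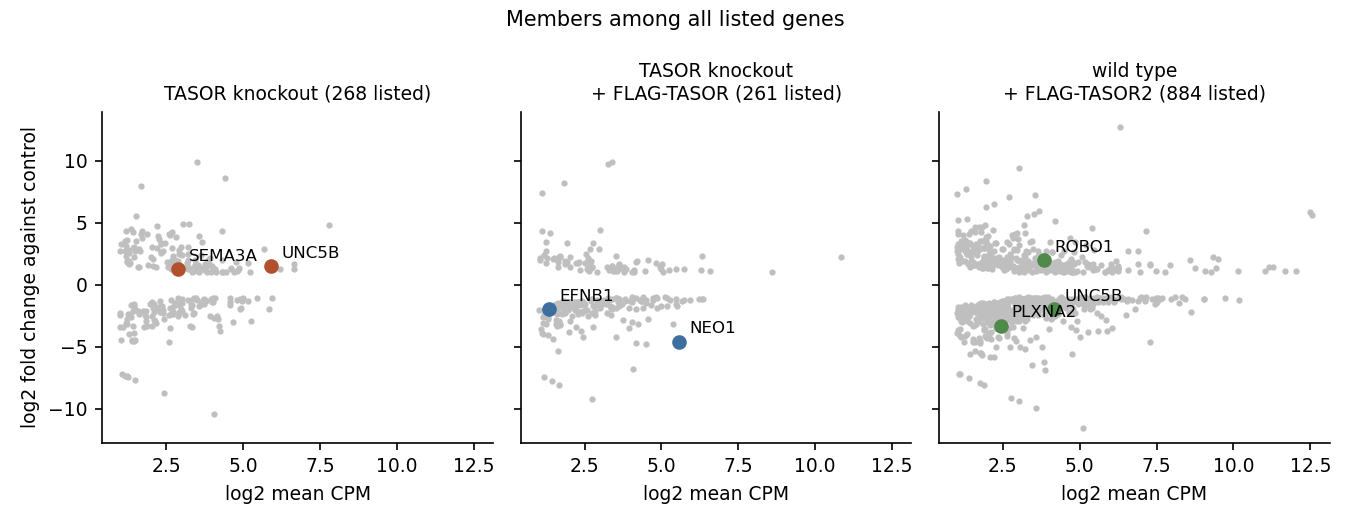
All listed genes of each table (grey points) by log2 mean CPM (x axis) and log2 fold change against controls (y axis), with the members coloured and named. The gap around 0 is the listing threshold on the fold change, and NEO1 and the knockout value of UNC5B sit among the more highly expressed listed genes.

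The median log2 fold change of the listed members was 1.39 in the knockout, beside 1.91 for all genes listed as higher. With FLAG-TASOR it was -3.28, beside -1.74 for all genes listed as lower. With FLAG-TASOR2 it was -1.97, which is the value of UNC5B, beside -1.85 for lower and 1.83 for higher genes. These medians rest on 2, 2 and 3 genes and describe them only.

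Of the 6 members, 5 are longer genes than the median listed one, a feature that the rule did not use. The median span of the 6 was 237.8 kb, against 43.2 kb for all protein-coding genes listed in any table and 26.9 kb for all annotated ones. The 66 unlisted genes of the same families were not compared in length. A trait of the listed members therefore cannot be told apart from one of their families. ROBO1 spans 1170.6 kb, SEMA3A 536.9 kb, NEO1 253.5 kb, PLXNA2 222.1 kb and UNC5B 90.3 kb, and EFNB1 is the short one at 13.2 kb. The longest annotated coding transcript of NEO1 has 30 exons and that of PLXNA2 32, while EFNB1 has 5. The median exon number was 23 for the members and 9 for all listed protein-coding genes. An antisense gene, UNC5B-AS1, overlaps UNC5B. On the opposite strand NEO1 has 3 overlapping genes, 1 of them classed as antisense, and ROBO1 has 2 of other classes. None of these was listed. The sources used here do not state if counting used strand, so reads of both strands may be mixed in UNC5B, NEO1 and ROBO1.

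Other listed genes lay near 2 of the members, UNC5B and EFNB1. For UNC5B in the knockout, no other listed gene lay within 1 Mb, among 21 protein-coding genes there. Of the listed genes with a position in that comparison, 36.2% had a listed neighbour within 1 Mb. With FLAG-TASOR2, 3 genes were listed within 1 Mb of UNC5B, and all 3 were lower like UNC5B itself. PALD1 was at -5.83 (0.90), VSIR, which encodes an immune checkpoint protein, at -2.99 (0.48), and LRRC20 at -2.17 (0.52) in the authors' deposited table. Their starts lie 734, 561 and 830 kb from that of UNC5B. A listed neighbour within 1 Mb is common in this table, at 63.7% of the genes with a position (543 of 853). For 315 of these 543, all such neighbours had the gene's own sign.

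With FLAG-TASOR, the listed neighbours of EFNB1 within 1 Mb were lower as well. Among them, STARD8 was at -1.67 (0.29) and PJA1, which encodes a ubiquitin ligase, at -2.75 (0.64) in the authors' deposited table. In this comparison 25.7% of listed genes with a position had any listed neighbour within 1 Mb (65 of 253). For 51 of these 65, all such neighbours had the gene's own sign. Within 5 Mb of the EFNB1 start, a window chosen after the values were seen, all 10 other listed genes were lower, and over the whole of chromosome X 29 of 30 listed genes were, beside 176 of 261 in the whole table. On chromosome X 15 of 21 listed genes were also lower in the knockout, beside 131 of 268 in the whole table. With FLAG-TASOR2 67 of 80 were, beside 526 of 884, against the same controls. The lower value of EFNB1 came together with lower values along its chromosome, whose part in the result was not tested. NEO1, SEMA3A, PLXNA2 and ROBO1 had no listed neighbour (0 each), among 29, 3, 11 and 1 protein-coding genes within 1 Mb.

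**Figure D4:**
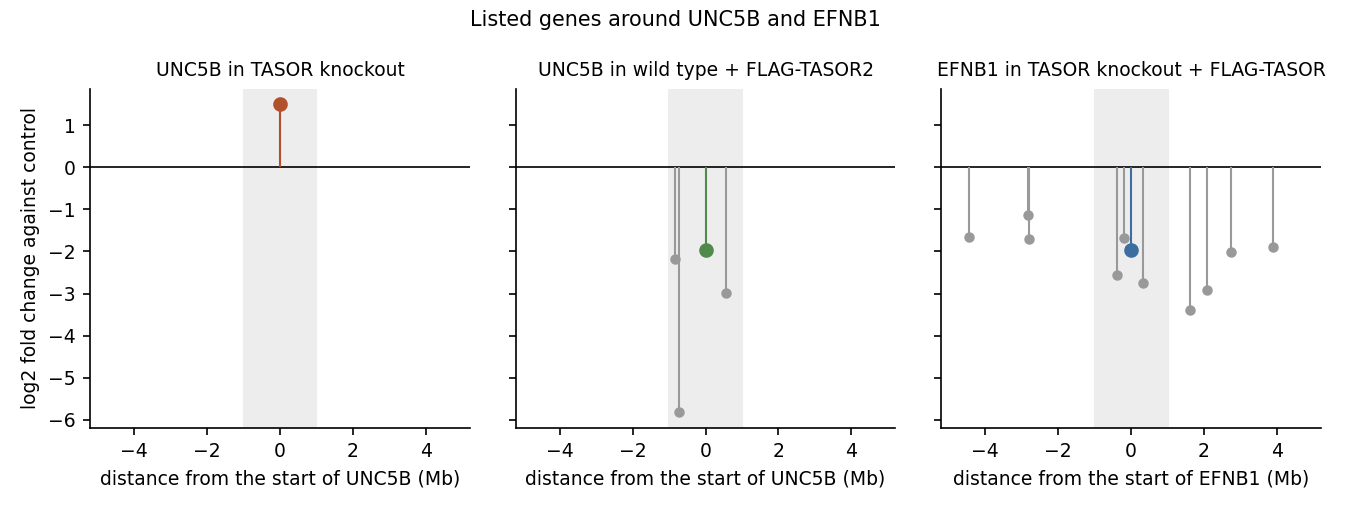
Log2 fold changes (y axis) of listed genes by the distance of their starts from the start of UNC5B or EFNB1 (x axis, Mb, positive in the direction of transcription), with the member coloured, other listed genes grey and 1 Mb to either side shaded. UNC5B stands alone in the knockout, where 268 genes are listed, and beside 3 lower genes with FLAG-TASOR2, where 884 are. All 10 listed genes around EFNB1 are lower.

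Of 78 co-receptors, further ligands and cytoplasmic effectors, 3 were listed in the knockout, 2 with FLAG-TASOR and 2 with FLAG-TASOR2, none as higher (0) and none with an adjusted p below 0.05 (0, edgeR-type F-test, 7 listings at an unadjusted p below 0.05). These are 3.85%, 2.56% and 2.56% of the list, beside 1.92%, at most 1.87% and 6.31% for all genes tested. How many of the 78 the authors tested is unknown, so the first 3 are not shares of tested genes. Lower genes were 131 of 268, 176 of 261 and 526 of 884 over the whole tables. In the knockout the genes of the list were SRC at -2.51 (0.65), the receptor kinase gene MET at -2.25 (0.63) and PTPRF, which encodes a receptor phosphatase, at -2.88 (1.02) in the authors' deposited table. SRC, a tyrosine kinase used by several guidance receptors, was also listed at -1.73 (0.53) with FLAG-TASOR and at -2.17 (0.66) with FLAG-TASOR2 in the authors' deposited tables. All 3 comparisons use the same controls and are therefore not independent on this gene. With FLAG-TASOR the exchange factor gene TRIO was at -1.16 (0.19), and with FLAG-TASOR2 the kinase gene PAK1 was at -1.70 (0.46) in the authors' deposited tables.

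Markers of blood lineages were listed in the same comparisons, to be read against the 1.92%, at most 1.87% and 6.31% of all genes listed in the knockout, FLAG-TASOR and FLAG-TASOR2 tables. With FLAG-TASOR2, 5 of 16 erythroid markers were listed, all as higher (2.56% of all genes were), and in the authors' deposited table SLC4A1 was at 2.62 (0.31), HBA2 at 2.04 (0.30) and HBA1 at 1.12 (0.20). The megakaryocyte markers TUBB1 at 1.77 (0.25) and GP1BB at 1.59 (0.26) were also listed there, 2 of 10 on that list. Of 10 myeloid markers, ITGAM at -4.62 (0.78), CLC at -4.33 (0.96) and MS4A3 at 2.24 (0.41) were listed with FLAG-TASOR2 in the authors' deposited table. The same 3 genes were listed as lower, between -2.52 and -1.76, in both knockout groups, where the erythroid list gave HBE1 at 2.24 (0.57) with FLAG-TASOR and 0 genes in the knockout. None of 12 neuronal and 7 endothelial markers was listed in any comparison (0), and lists of this length would hold few or no genes at those shares. No marker of any list had an adjusted p below 0.05 in any comparison (0, edgeR-type F-test of the deposited tables). The marker lists were chosen with earlier results of these data known, so their counts are no independent check of lineage. How many of the markers the authors tested is unknown, so these counts are not shares of tested genes. The part of lineage differences in the members' values was not tested, and in such bulk samples fewer cells of a type and less RNA per cell cannot be told apart.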

How the data were processed

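Ribosomal RNA-depleted libraries from K-562 cells, 8 in 4 groups of 2, were sequenced. Among tools, STAR (2.7.8), edgeR, DESeq2 and Salmon appear in the submitters' processing notes of what the authors used, with the build hg38 and no roles. The deposited tables hold, per the file headers, log2 fold change, log2 mean CPM, F score, p-value and adjusted p-value. The authors' column names match the output of edgeR's quasi-likelihood F-test, but no source used here names the tool that made the tables. Every listed gene had p below 0.05, and an absolute log2 fold change and log2 mean CPM above 1. No test was run, and the deposited p-values were used as they stand.

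Standard errors are the absolute fold change over the square root of F, and 95% intervals use t with the degrees of freedom implied by F and p (5.34 to 6.01). The arithmetic behind the degrees of freedom, standard errors and group levels was checked on simulated data (Python 3.11.15, SciPy 1.17.1). The simulation was built from the same formulas, so it tests neither the equal weighting of the groups nor the approximation of the standard errors. The number of genes tested was the top gene's adjusted p divided by its unadjusted p, or, for FLAG-TASOR, from the last row number. Positions came from GENCODE 29, matched by Ensembl identifier.

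Every listed member was named. Of the pathway list up to 4 genes per table were named by p, and of each marker list up to 3. The result for a neighbouring gene is not reported here. Members and lists were chosen with earlier results of these data known.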

Additional observations from a re-analysis of the deposited data

How the results depend on the processing

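Leaving out a replicate or changing the normalisation was impossible without values per library. No paired analysis was possible because the deposited tables give 1 value per gene and comparison, none per library. Depth is unknown. Of 27 alternatives, 16 left the value within 1.5 times of a count, or within the median approximate standard error of a median. Another 10 moved the value and 1 reversed its sign. Many of the 16 could not act. Adding NRP1, NRP2, RGMA, RGMB and DRAXIN added no listed gene, and the knockout and FLAG-TASOR2 comparisons listed no ephrin or Eph receptor to leave out. The 16 are therefore no measure of robustness. With an absolute log2 fold change above 1.5, 1 member was counted in the knockout, UNC5B, which passed narrowly at 1.5012. Above 2 the counts were 0, 1 and 1 in the knockout, FLAG-TASOR and FLAG-TASOR2 comparisons. With an unadjusted p below 0.01, 1 was counted in the knockout and 1 with FLAG-TASOR. Among genes of at least median expression, or without ephrins and Eph receptors, NEO1 alone was left with FLAG-TASOR (1 member, median -4.59). The same expression limit removed PLXNA2 from the FLAG-TASOR2 comparison and turned the median there from -1.97 to 0.01, the midpoint of ROBO1 and UNC5B. In each case the smaller number of genes counted sets the value.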
